A study of Mus musculus with 6 samples.

Results

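Conjugation and esterase genes of the liver encode enzymes that make foreign and endogenous compounds water soluble or split their ester bonds. Accessible chromatin around them was compared between fasted and refed mice with ATAC-seq, a method that marks open DNA by letting a transposase insert sequencing adapters into it. The members were the peaks that the authors' table assigns, by nearest gene start, to a gene whose symbol begins with Ugt1, Ugt2, Ugt3, Gst, Sult or Ces. These were 300 of the 74076 peaks, at 78 genes on 12 chromosomes. All libraries came from liver of male C57BL/6J mice, an inbred strain, aged 8 weeks. The 3 fasted libraries were from mice without food for the last 12 h, from 10 pm to 10 am. The 3 refed libraries were from mice that had fasted through the day, for 12 h from 10 am, and then had a high sucrose diet (69% sucrose, 10% fat) overnight until they too were killed at 10 am. Eating, the diet itself and the hours of the fast cannot be told apart. No label says that each library was made from its own mouse, so each p-value reflects only how much these libraries vary, which may be technical.

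Glucuronosyltransferases (Ugt) attach glucuronic acid, glutathione transferases (Gst) attach glutathione, and sulfotransferases (Sult) attach sulfate to drugs, hormones, bilirubin and reactive electrophiles. Carboxylesterases (Ces) split esters and amides, among them drugs and stored lipids. Hepatocytes express many of these genes strongly, and several of the families lie in clusters of duplicated genes under nuclear receptors and stress-responsive factors.

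The promoters of 4 genes are shown: results below turn on peaks over or near those of Gstp3, Gstm3 and Sult3a1, and Gstp1 is the paralog set beside Gstp3. Each line gives the 250 bases before the gene start from RefSeq on the build GRCm38.p6, read 5′ to 3′ on the gene's strand. Capitals mark a match to 1 of 3 motifs searched on both strands, the antioxidant response element (TGACNNNGC), the AP-1 site (TGANTCA) and the TATA box (TATAAA). The peaks themselves are on mm9 and are given below in that build; no position was converted between builds.
Gstp1 (chr19:4037913-4038162, minus strand): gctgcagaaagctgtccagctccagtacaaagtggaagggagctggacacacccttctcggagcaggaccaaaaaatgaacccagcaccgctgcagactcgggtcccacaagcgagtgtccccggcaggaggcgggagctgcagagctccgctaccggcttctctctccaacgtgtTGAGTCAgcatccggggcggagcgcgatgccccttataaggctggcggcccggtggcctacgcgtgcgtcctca
Gstp3 (chr19:4059448-4059697, minus strand): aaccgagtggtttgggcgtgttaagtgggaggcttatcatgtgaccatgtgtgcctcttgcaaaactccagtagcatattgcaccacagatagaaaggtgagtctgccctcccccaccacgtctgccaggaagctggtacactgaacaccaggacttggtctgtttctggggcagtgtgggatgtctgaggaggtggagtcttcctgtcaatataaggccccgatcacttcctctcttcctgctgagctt
Gstm3 (chr3:107969175-107969424, minus strand): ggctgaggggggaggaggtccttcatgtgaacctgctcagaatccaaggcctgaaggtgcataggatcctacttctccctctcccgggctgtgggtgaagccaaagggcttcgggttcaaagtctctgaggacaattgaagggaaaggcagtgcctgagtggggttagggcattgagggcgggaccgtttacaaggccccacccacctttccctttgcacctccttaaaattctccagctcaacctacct
Sult3a1 (chr10:33857472-33857721, plus strand): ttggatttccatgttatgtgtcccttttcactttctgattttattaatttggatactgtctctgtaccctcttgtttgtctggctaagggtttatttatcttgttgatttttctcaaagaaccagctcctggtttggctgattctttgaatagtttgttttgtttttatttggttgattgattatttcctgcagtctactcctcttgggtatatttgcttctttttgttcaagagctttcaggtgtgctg
Gstp1 held an AP-1 match that starts 74 bases before its start, and no motif was matched in the windows of Gstp3, Gstm3 and Sult3a1. The windows of the paralogs Gstp1 and Gstp3 were identical at 31.6% of bases in their best ungapped alignment, shifted by at most 12 bases. Unrelated windows were not aligned, so this share cannot be read as a sign of similarity. RefSeq windows were matched for 65 of the 78 genes, 77 windows in all. Of these, 13.0% held the AP-1 motif, against 6.75% of all 32851 windows, 18.2% held the TATA box, against 12.4%, and 3.90% held the antioxidant response element, against 10.2%. The first and the last of these letter patterns can overlap each other. A match is a string of letters and no evidence of binding. No window was matched for Gstt2 and Sult4a1.

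Reads in the listed peaks numbered 3205634 to 4850613 per library, and the median peak held 19 to 33 reads. The fewest reads were in fasted replicate 3 and refed replicate 7. Marker genes of the labelled tissue were open: the 69 peaks of 5 hepatocyte genes summed to 1349 to 1584 RPKM in the fasted and 1338 to 1457 RPKM in the refed libraries. Limma called 1 of these 69 peaks higher and 3 lower, where it called 0.802% and 0.427% of all peaks. RPKM here is reads per kilobase of peak, scaled to the total that each library has in the peaks. Of 5 cholangiocyte markers, 3 had peaks (Krt19 and Krt7 had none listed), and their 11 peaks summed to 164 to 167 RPKM in the fasted and 192 to 218 RPKM in the refed libraries, with 9 of the 11 higher on average in refed liver. The 3 lymphocyte markers with peaks (Cd3e and Cd79a had none listed) had sums of 126 to 135 and 103 to 113 RPKM. Sums for Kupffer cell, endothelial and stellate cell markers overlapped between the groups, at 43.0 to 62.4 and 47.9 to 53.2, 537 to 570 and 564 to 591, and 188 to 217 and 205 to 222 RPKM; 2 of the 39 endothelial peaks were called higher by limma. Of these lists Clec4f, Vsig4, Cd5l and Des had no listed peak. In bulk tissue, fewer cells of a type and less open chromatin per cell cannot be told apart.

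Most chromatin around the conjugation and esterase genes did not pass the test between fasted and refed liver. Higher in refed liver were 2 peaks, both assigned to Sult4a1 and both inside its neighbour Pnpla5, and lower was 1 peak just upstream of Gstt2. By edgeR's count test and not by limma, peaks assigned to Gstp3, Gstm3, Ces3b and Sult1c2 were higher and others at Gstt2, Ces1a and Ces5a were lower. The mu-class cluster (Gstm) was above 0 at 21 of 22 peaks without a single call in the main limma fit, though limma with array weights called 7.

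Limma was fitted to log2 RPKM of all 74076 peaks with Benjamini-Hochberg adjustment over all of them. It called 2 of the 300 members higher, against 0.802% of all peaks, and 1 lower, against 0.427%; 1.23% of all peaks were called in either direction. At an unadjusted p under 0.05, 22 members were higher and 19 were lower, beside backgrounds of 8.91% and 5.64%. EdgeR on the recovered reads tested 245 members and called 6 higher and 4 lower, with 2.58% and 1.43% of all tested peaks called (4.01% in either direction). DESeq2 called 4 members, each of them higher (1.04% of all peaks with an adjusted p were higher, 0.616% lower and 1.66% either; 67 members had no adjusted p). In the authors' deposited table, made with edgeR, 13 members are listed, 7 higher and 6 lower, beside 2.81% and 1.66% of all peaks, 4.47% in either direction. After quantile normalization limma called 1 member higher and 0 lower (25 lower at an unadjusted p under 0.05), and 71 and 23 over all peaks against 594 and 316.

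The 3 refed libraries lay above the 3 fasted ones at 28 members and below them at 27, where 10.5% and 8.57% of all peaks did so. The median log2 change was -0.00 over the members and 0.00 over all peaks, with 136 members above and 150 below 0. These shares were near the background of the whole table.

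**Figure D1:**
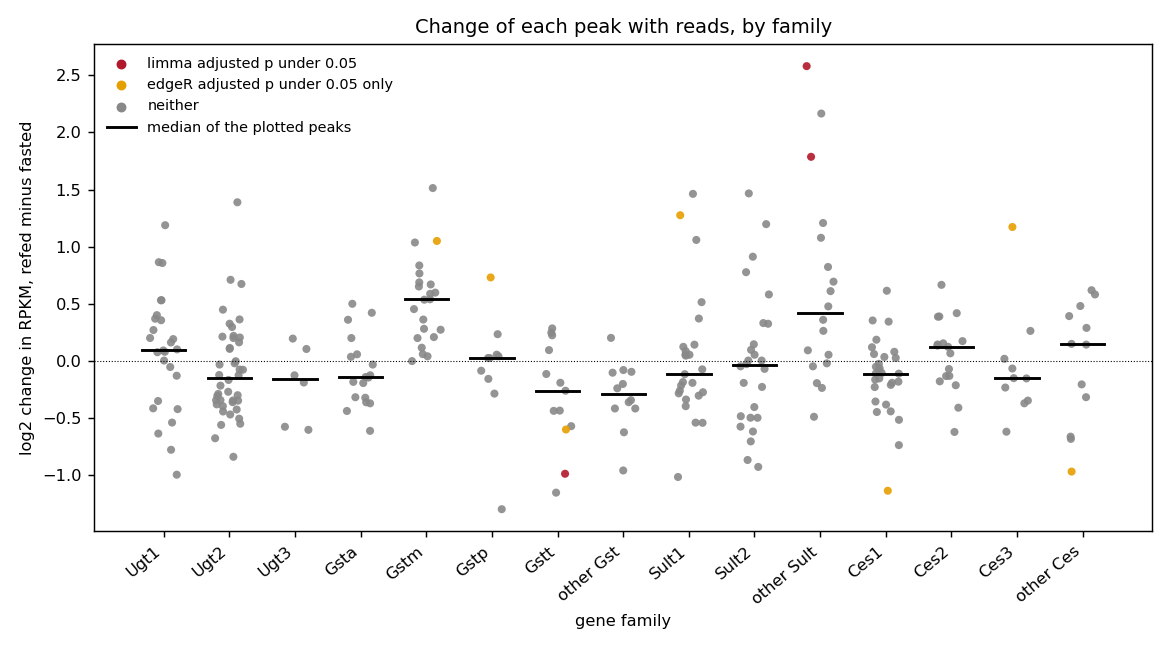
Log2 change in accessibility (refed minus fasted, log2 RPKM) of each member peak with reads, grouped by gene family; each point is 1 peak, the bar is the family's median over the plotted peaks, and colour gives the test passed. The Gstm median stands near 0.54 with 1 edgeR call, and both limma calls above 0 lie among the sulfotransferases outside Sult1 and Sult2.

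The members lay closer to gene starts than peaks in general. Within 10 kb of the assigned start were 62.7% of them, against 36.8% of all peaks, and 17.0% were in the promoter class, against 12.4%. Their median mean level was 15.4 RPKM, against 15.7, and their median width 447 bp, against 435 bp. Repeats held 25.7%, against 26.5%. The 51 promoter peaks of the members had a median of 20.1 RPKM, where all 9220 promoter peaks had 36.3 RPKM. A mean of fewer than 10 reads was found at 53 members (17.7%, against 18.3%). At 14 members, of 9 genes, no library held a read, and the authors' table gives them the value of 0.9 reads. The levels of these members could not be compared. These included all 4 peaks of Ces2d-ps, a carboxylesterase pseudogene. Only uniquely placed reads were kept, per the file headers, so reads shared by near-identical family copies may be missing from the clusters of duplicated genes.

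Sult4a1 encodes a sulfotransferase known chiefly from the brain, with no well established substrate. The peak 7407 bp upstream of its start (mm9 chr15:83943410-83943773) lies in intron 9 of 9 of Pnpla5, a patatin-like phospholipase family gene. It held 7, 5 and 7 reads in fasted replicates 1, 3 and 4 and 32, 38 and 43 reads in refed replicates 5, 7 and 8. All refed libraries stood far above all fasted ones. Accessibility rose from 4.32 ± 0.371 to 26.2 ± 5.65 RPKM (mean ± SD, n = 3 each). The log2 change was 2.58 ± 0.33 (± SE; limma adjusted p = 0.00437; edgeR adjusted p = 7.88e-05). The peak 8243 bp upstream (mm9 chr15:83944141-83944713), in intron 7 of 9 of Pnpla5, held 21, 18 and 20 reads in the fasted and 66, 71 and 66 reads in the refed libraries. It rose from 8.63 ± 1.12 to 30.2 ± 7.18 RPKM, by 1.79 ± 0.26 on the log2 scale (limma adjusted p = 0.00798; edgeR adjusted p = 0.000155). Again no fasted library reached a refed one.

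The peaks within Sult4a1 itself did not pass. At its exon 1, 258 bp from the start, the level was 10.1 ± 4.64 RPKM in the fasted and 11.2 ± 1.52 RPKM in the refed liver (log2 change 0.26 ± 0.40, limma adjusted p = 0.859). In intron 1, 2390 bp from the start, it was 8.15 ± 6.43 and 13.9 ± 1.36 RPKM (1.08 ± 0.50, limma adjusted p = 0.344). Among the 5 peaks assigned to Pnpla5, those 9630 and 26073 bp upstream of the Sult4a1 start rose by 1.73 ± 0.22 and 1.37 ± 0.19 (limma adjusted p = 0.00394 and 0.0063), and the other 3 had changes of 0.88 to 2.05 without passing limma. Of these, the peak 27951 bp upstream, with 2.05 (limma adjusted p = 0.0511), passed in edgeR (adjusted p = 0.00687) and DESeq2 (adjusted p = 0.0208). In an alternative, member peaks annotated to a transcript of a gene outside the families were left out, and peaks in no transcript were kept. The limma count of higher peaks was then 0, with 20 at an unadjusted p under 0.05, 4 by edgeR and 2 by DESeq2. Without an intensity trend both Sult4a1 calls were lost (limma adjusted p = 0.0678 and 0.0691), as was that of the peak at 8243 bp with quantile normalization (limma adjusted p = 0.0595).

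**Figure D2:**
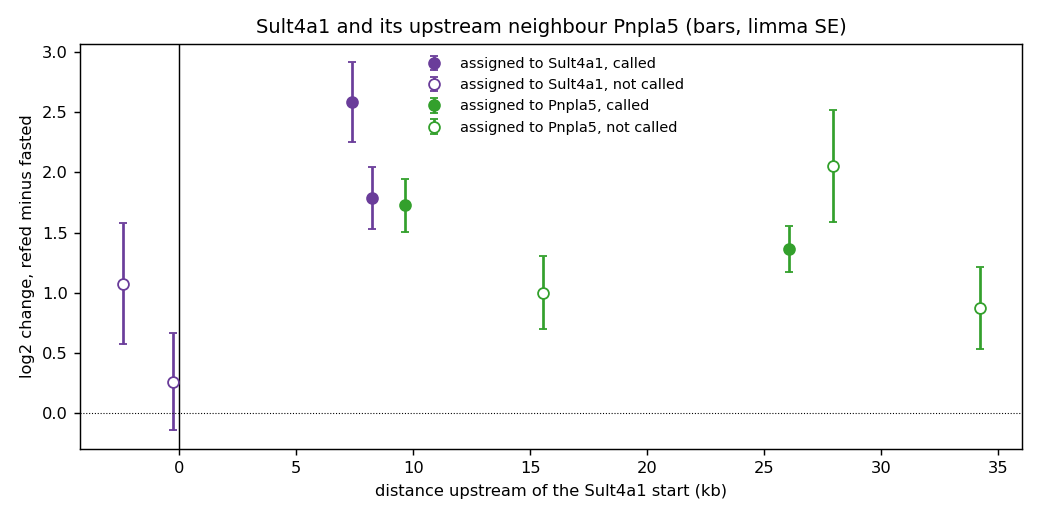
Log2 change (refed minus fasted, ± limma SE) of peaks by distance upstream of the Sult4a1 start in kb, coloured by assigned gene and filled where limma called them. The called peaks, between 7407 and 26073 bp upstream, lie beyond the Sult4a1 start, and the open symbol at its own exon 1 sits at 0.26.

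Theta-class glutathione transferases include Gstt1, Gstt2 and Gstt3, which act on small halogenated compounds and organic peroxides and lie together on chromosome 10. The intergenic peak 1407 bp upstream of Gstt2 (mm9 chr10:75298861-75299206) held 68, 47 and 51 reads in the fasted and 37, 20 and 28 reads in the refed libraries. Every refed library was below every fasted one in RPKM, from 17.3 to 25.6 against 36.1 to 42.4. The level fell from 39.6 ± 3.25 to 20.2 ± 4.65 RPKM (mean ± SD, n = 3 each), and the log2 change was -0.99 ± 0.18 (limma adjusted p = 0.0201; edgeR adjusted p = 0.0159). In the authors' deposited table its FDR was 0.00217. The limma call was lost without fasted replicate 4, refed replicate 7 or refed replicate 8 (adjusted p = 0.0617, 0.0553 and 0.0832), after quantile normalization (0.0811) and without an intensity trend (0.114), and DESeq2 did not make it (adjusted p = 0.0608).

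The other 4 Gstt2 peaks pointed the same way without passing limma. The promoter peak 718 bp upstream held 51.2, 56.4 and 40.2 RPKM in the fasted and 33.6, 36.1 and 27.3 RPKM in the refed libraries, a log2 change of -0.60 ± 0.15 (limma adjusted p = 0.0705) that edgeR called (adjusted p = 0.0425). The strongest Gstt peak, 2624 bp upstream, stood at 50.1 ± 0.537 RPKM in the fasted and 44.2 ± 6.43 RPKM in the refed liver (limma adjusted p = 0.502). In each of the 5 Gstt2 peaks all refed libraries lay below all fasted ones, where 8.57% of all peaks did so.

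Gstt3 had an intronic peak 1440 bp into the gene at 21.1 RPKM in the fasted and 10.7 RPKM in the refed liver (means, limma adjusted p = 0.194) and a 5′ UTR peak at 31.2 and 23.2 RPKM (limma adjusted p = 0.287). Gstt1 lies between them, and its promoter peak held 17.7 ± 3.36 and 20.5 ± 3.11 RPKM (limma adjusted p = 0.737), and 4 of its 5 peaks were above 0; the difference between these paralogs was not tested. The 13 Gstt peaks together summed to 388, 381 and 373 RPKM in the fasted and 330, 295 and 320 RPKM in the refed libraries. Their median log2 change was -0.26, with 4 above 0. Of the 8 whose groups did not overlap 7 were lower in refed liver and 1, at Gstt1, was higher. Over all peaks 8.57% were lower and 10.5% higher without overlap. The summed lymphocyte markers were also lower in refed liver, and their part in the result was not tested.

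**Figure D3:**
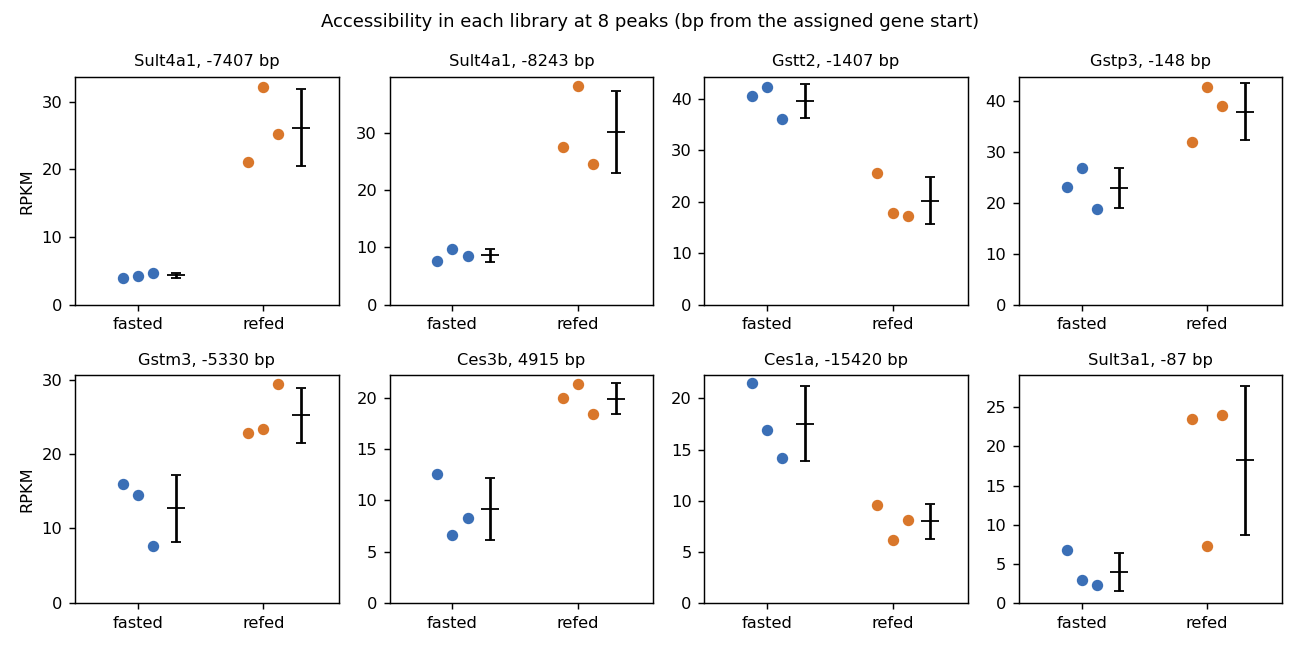
Accessibility in RPKM in each of the 3 fasted and 3 refed libraries at 8 member peaks, with mean ± SD beside the points and distance to the assigned gene start above each panel. The 8 peaks were chosen for their small p, so the lack of overlap between their groups follows largely from that choice. Over all peaks 10.5% had all refed libraries above all fasted ones and 8.57% had them below. At Sult3a1 the refed points spread from 7.21 to 24.0 RPKM.

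Mu-class glutathione transferases conjugate epoxides and other electrophiles, and their 7 genes with peaks form a cluster of 149639 bp on chromosome 3 (mm9 chr3:107698473-107848111). The 22 Gstm peaks were above 0 at 21 positions, where 49.3% of all peaks were, with a median log2 change of 0.54 and a range from -0.00 to 1.51. Their summed level was 487, 424 and 450 RPKM in the fasted and 574, 612 and 567 RPKM in the refed libraries. The groups did not overlap in this sum. Limma called 0 of the 22, with 11 higher at an unadjusted p under 0.05, edgeR called 1 and DESeq2 called 0. At 12 of them every refed library was above every fasted one, and at 0 below. Over all peaks these shares were 10.5% and 8.57%, and 8.91% were higher at that unadjusted p.

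Within the cluster the differences were uneven. The peak that edgeR called, 5330 bp upstream of Gstm3 (mm9 chr3:107777165-107777679), held 40, 24 and 16 reads in the fasted and 49, 39 and 71 reads in the refed libraries. In RPKM, fasted libraries ran from 7.60 to 16.0 and refed libraries from 22.8 to 29.5, without overlap. The log2 change was 1.05 ± 0.29 (limma adjusted p = 0.0975; edgeR adjusted p = 0.0257). The Gstm3 promoter, whose sequence is shown above, had 16.8, 14.3 and 16.1 RPKM in the fasted and 27.2, 25.8 and 22.1 RPKM in the refed libraries (0.67 ± 0.20, limma adjusted p = 0.125). A peak in Gstm3 intron 5 of 7 had the highest change of the cluster, 1.51 ± 0.53, but rested on 12, 2 and 16 reads in fasted libraries (limma adjusted p = 0.192). Gstm2, a nearby gene of the cluster, had 15.0 ± 0.708 and 21.9 ± 3.17 RPKM in intron 5 and 18.8 ± 2.50 and 28.7 ± 5.69 RPKM in intron 1 (limma adjusted p = 0.261 and 0.175).

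The strongest starts of the cluster differed least. Gstm1, the most open peak of the family, held 57.6, 46.8 and 57.4 RPKM in the fasted and 57.5, 57.4 and 50.8 RPKM in the refed libraries at its 5′ UTR (0.04 ± 0.11, limma adjusted p = 0.961). Gstm7 stood at 50.9 ± 5.03 and 51.0 ± 7.02 RPKM at its promoter, and Gstm4 at 48.8 ± 2.98 and 56.7 ± 8.66 RPKM (limma adjusted p = 0.999 and 0.446). Gstm6 had 28.5 ± 5.39 and 34.2 ± 1.73 RPKM at its start and Gstm5 23.6 ± 1.78 and 30.3 ± 2.93 RPKM (limma adjusted p = 0.466 and 0.309). The 17 peaks outside the promoter class had a median change of 0.59, and none was below 0.

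Of the 10 peaks before the cluster, assigned to Csf1 and Eps8l3, 9 were above 0 with a median log2 change of 0.26. Of the 10 after it, assigned to Ampd2, Gnai3, Gnat2 and Gpr61, 4 were above 0 with a median of -0.02. Limma, edgeR and DESeq2 called 0 of these 20 neighbours, and 4 had an unadjusted limma p under 0.05. Over all alternatives the Gstm median ran from 0.41 to 0.60, and with fasted replicate 3 and refed replicate 7 left out it was 0.41, with 18 peaks above 0. Limma with array weights called 7 of the 22 Gstm peaks higher, where it called 6524 of all 74076 peaks higher. With quantile normalization or median centring limma called 0 of the 22. The cholangiocyte marker sums were likewise higher in refed libraries, and their part in the Gstm levels was not tested.

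**Figure D4:**
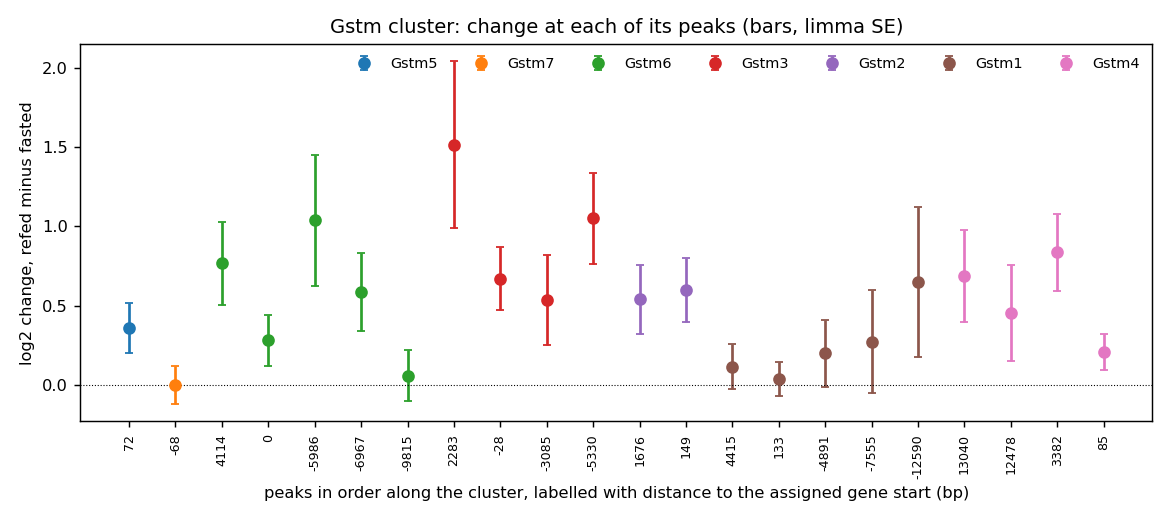
Log2 change (refed minus fasted, ± limma SE) of the 22 Gstm peaks in order along chromosome 3, coloured by assigned gene and labelled with the distance in bp to its start. Changes run from -0.00 at the Gstm7 promoter to 1.51 in a Gstm3 intron; the peaks assigned to Gstm1 and Gstm7 include the smallest.

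Pi-class Gstp1 and Gstp3 lie on chromosome 19 with Gstp2 between them, and the changes at their promoter peaks had opposite signs, neither passing limma. The Gstp3 peak 148 bp upstream of the start (mm9 chr19:4058989-4059896) held 102, 78 and 70 reads in the fasted and 121, 126 and 166 reads in the refed libraries. In RPKM the groups were apart, at 18.9 to 26.8 and 31.9 to 42.8. The log2 change was 0.73 ± 0.17, which missed the limma threshold (adjusted p = 0.0598) and passed in edgeR (adjusted p = 0.0087) and DESeq2 (adjusted p = 0.0249). It also passed limma without fasted replicate 3 (adjusted p = 0.0385) and among peaks with a mean of at least 10 reads (adjusted p = 0.049). Gstp1, the better known detoxifying enzyme of the class, had 48.1 ± 0.962 RPKM in the fasted and 43.2 ± 2.25 RPKM in the refed liver at its promoter (-0.16 ± 0.10, limma adjusted p = 0.522). The difference between these genes was not tested.

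Alpha-class peaks (Gsta), at genes for enzymes that reduce lipid peroxides, gave 0 calls in limma, edgeR and DESeq2 and 0 of 19 at an unadjusted p under 0.05. The Gsta3 promoter was the most open of them, with 50.9, 25.8 and 39.0 RPKM in the fasted and 41.5, 24.6 and 37.4 RPKM in the refed libraries (limma adjusted p = 0.873). The Gsta2 promoter held 17.2 ± 3.70 and 17.5 ± 3.40 RPKM (limma adjusted p = 0.999). At both promoters the groups overlapped, and the lowest value of Gsta3 in each group came from the library with the fewest reads.

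Gstz1, Gstk1, Gsto1, Gsto2 and Gstcd made up the other Gst genes. Gstz1, the maleylacetoacetate isomerase of tyrosine breakdown, had the most open peak of all members, with 65.2 ± 11.2 RPKM in the fasted and 60.4 ± 7.72 RPKM in the refed liver (limma adjusted p = 0.788). The promoter of Gstk1, a kappa-class enzyme of mitochondria and peroxisomes, had 56.4 ± 5.26 and 49.2 ± 6.74 RPKM (limma adjusted p = 0.462). Of the 12 peaks of these genes 11 were below 0, with a median log2 change of -0.29, but limma, edgeR and DESeq2 called 0 and 1 had an unadjusted p under 0.05. The median was -0.18 without fasted replicate 3, -0.15 without refed replicate 7, -0.09 without both and -0.16 with array weights. The peak with that p, 24927 bp downstream of the start of Gsto2, an omega-class gene, held 16.2 ± 2.91 and 10.4 ± 1.15 RPKM (limma adjusted p = 0.343).

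Glucuronosyltransferase peaks gave 0 calls at 77 positions in limma, edgeR, DESeq2 and the authors' deposited table, with 1 higher and 2 lower peaks below an unadjusted p of 0.05. The Ugt1 locus, where alternative first exons share common downstream exons, had its strongest peak in intron 1 of Ugt1a1, the bilirubin conjugating enzyme. It lies 1797 bp from the start (mm9 chr1:90109654-90111009) and held 68.4, 64.2 and 57.4 RPKM in the fasted and 60.6, 60.1 and 61.8 RPKM in the refed libraries. The groups overlapped, and the log2 change was -0.05 ± 0.09 (limma adjusted p = 0.874). At the Ugt1a1 exon 1 peak, 280 bp from the start, the refed libraries (47.2 to 50.7 RPKM) lay just above the fasted ones (45.0 to 46.4 RPKM), and the change was 0.10 ± 0.10 (limma adjusted p = 0.723). Other first exons were weaker: the Ugt1a6b promoter had 8.29 ± 3.59 and 9.08 ± 2.16 RPKM and the Ugt1a7c promoter 4.64 ± 3.37 and 8.28 ± 1.75 RPKM (limma adjusted p = 0.929 and 0.415). A mean under 10 reads was found at 11 of the 28 Ugt1 peaks.

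Ugt2 enzymes conjugate steroids, bile acids and drugs, and their genes lie with sulfotransferase genes on chromosome 5. The Ugt2a3 promoter held 23.4, 23.6 and 22.0 RPKM in the fasted and 16.8, 16.1 and 14.2 RPKM in the refed libraries. The refed values were all lower, yet the log2 change of -0.55 ± 0.20 did not pass (limma adjusted p = 0.211; edgeR adjusted p = 0.151). The strongest Ugt2 peak, 3372 bp upstream of Ugt2a3 in a LINE repeat, had 34.1 ± 5.97 and 30.1 ± 3.50 RPKM (limma adjusted p = 0.713). Of the 42 Ugt2 peaks 14 were above 0, with a median of -0.15; the median was -0.03 without fasted replicate 1, -0.02 without refed replicate 7 and -0.34 without fasted replicate 3, with 19, 20 and 10 above 0. Their summed level was 898, 613 and 787 RPKM in the fasted and 810, 596 and 741 RPKM in the refed libraries, lowest in each group in the library with the fewest reads. The same library order held for the summed Gsta peaks (445, 315 and 359, and 379, 312 and 351 RPKM) and Sult1 peaks (481, 334 and 411, and 414, 338 and 389 RPKM), and the part of depth was not tested. Ugt3 genes, which use other sugars than glucuronic acid, had 7 peaks. The Ugt3a1 promoter stood at 16.0 ± 2.50 and 10.5 ± 1.30 RPKM and the Ugt3a2 exon 1 at 15.1 ± 1.99 and 17.3 ± 2.57 RPKM (limma adjusted p = 0.355 and 0.806).

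Among the sulfotransferases, the promoter of Sult3a1, an amine sulfotransferase described in mice, had the highest change of any member promoter. Its peak 87 bp upstream of the start (mm9 chr10:33577335-33577548) held 7, 2 and 2 reads in the fasted and 21, 5 and 24 reads in the refed libraries. Refed replicate 7 was close to the fasted libraries, at 7.21 RPKM against 6.74 RPKM in fasted replicate 1, while the other refed libraries were at 23.5 and 24.0 RPKM. The log2 change of 2.17 ± 0.56 missed the limma threshold (adjusted p = 0.0778), and the peak was below edgeR's filter on low counts. Without that filter edgeR gave an adjusted p of 0.0133, and the authors' deposited table lists it at an FDR of 0.00692. It passed limma without fasted replicate 1 (adjusted p = 0.0355), without refed replicate 7 (adjusted p = 0.0447) and with median centring (adjusted p = 0.0411). The nearby Sult3a2 had no promoter peak, and its strongest peak, 35022 bp upstream, had 17.4 ± 9.03 and 22.6 ± 4.86 RPKM (limma adjusted p = 0.544).

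Sult1 enzymes sulfate phenols, catecholamines and thyroid hormone. The Sult1a1 promoter had 31.7, 38.0 and 27.5 RPKM in the fasted and 16.5, 27.0 and 24.1 RPKM in the refed libraries (-0.54 ± 0.20, limma adjusted p = 0.223). These refed values lay below the fasted ones by a narrow margin. A peak in intron 4 of 7 of Sult1d1 had 22.2, 13.7 and 13.8 RPKM in the fasted and 7.61, 10.6 and 6.27 RPKM in the refed libraries (-1.02 ± 0.35, limma adjusted p = 0.180; edgeR adjusted p = 0.053), and the authors' deposited table lists it at an FDR of 0.0368. It also passed in edgeR without its filter (adjusted p = 0.0487) and in limma with array weights (adjusted p = 0.0284). The Sult1d1 promoter had 22.3 ± 7.59 and 18.0 ± 3.76 RPKM (limma adjusted p = 0.751). The intergenic peak 26426 bp upstream of Sult1c2 (mm9 chr17:54011517-54011902) held 11, 7 and 16 reads in the fasted and 31, 17 and 33 reads in the refed libraries. Its groups did not overlap in RPKM, and its change of 1.28 ± 0.35 passed in edgeR (adjusted p = 0.0269) but not in limma (adjusted p = 0.100). The strongest intron 1 peak of Sult1b1, a thyroid hormone sulfotransferase, had 31.2 ± 8.71 and 29.3 ± 6.91 RPKM (limma adjusted p = 0.974).

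Sult2a genes encode hydroxysteroid and bile acid sulfotransferases, and many of their peaks held few reads. Of their 28 peaks 13 had a mean under 10 reads and 15 lay in repeats. The promoter peaks of Sult2a1 and Sult2a2 held 11 and 7 reads over all 6 libraries, too few to compare the groups. Sult2a8 was covered better, with 22.2 ± 7.22 RPKM in the fasted and 18.3 ± 2.14 RPKM in the refed liver at its promoter (limma adjusted p = 0.760). The strongest Sult2 peak, 32519 bp upstream of Sult2a7, had 38.4 ± 2.14 and 37.7 ± 2.90 RPKM (limma adjusted p = 0.999). Smallest in unadjusted p was an intronic Sult2a3 peak in an LTR repeat with 2, 2 and 2 reads in the fasted and 4, 6 and 7 reads in the refed libraries (limma adjusted p = 0.182).

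Carboxylesterase peaks, 74 on chromosome 8, gave 0 calls in limma, with 2 higher and 6 lower peaks below an unadjusted p of 0.05. EdgeR tested 61 of them and called 1 higher and 2 lower, and DESeq2 called 1. Over all peaks 8.91% were higher and 5.64% lower at that unadjusted p, and edgeR called 2.58% and 1.43% of its tested peaks. The peak that edgeR called higher lies in exon 8 of 12 of Ces3b, 4915 bp from its start (mm9 chr8:107612217-107612923). It held 43, 15 and 24 reads in the fasted and 59, 49 and 61 reads in the refed libraries. In RPKM the refed libraries (18.4 to 21.4) were all above the fasted ones (6.62 to 12.5). The log2 change of 1.17 ± 0.31 passed in edgeR (adjusted p = 0.0102) and DESeq2 (adjusted p = 0.0345) but not in limma (adjusted p = 0.0824), where it passed only without fasted replicate 1 (adjusted p = 0.0372) and with array weights (adjusted p = 0.00522). The Ces3b promoter held 28.6 ± 1.64 and 25.8 ± 2.81 RPKM (limma adjusted p = 0.740), and that of Ces3a, a neighbouring liver esterase gene, 21.3 ± 1.47 and 18.4 ± 3.98 RPKM (limma adjusted p = 0.708).

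Lower by edgeR were peaks assigned to Ces1a and Ces5a. The Ces1a peak, 15420 bp upstream and inside intron 10 of 13 of its neighbour Ces1b (mm9 chr8:95587262-95587760), held 21.5, 16.9 and 14.2 RPKM in the fasted and 9.60, 6.19 and 8.14 RPKM in the refed libraries. No refed library reached the fasted range, and the change was -1.14 ± 0.32 (limma adjusted p = 0.110; edgeR adjusted p = 0.021). The intergenic Ces5a peak, 34078 bp upstream, held 14.9, 19.9 and 21.9 RPKM in the fasted and 9.08, 9.58 and 9.95 RPKM in the refed libraries. Its change was -0.97 ± 0.28 (limma adjusted p = 0.115; edgeR adjusted p = 0.0248).

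Ces1d, a lipase of the hepatocyte endoplasmic reticulum that takes part in lipoprotein assembly, had 32.0, 26.2 and 28.6 RPKM in the fasted and 17.3, 23.6 and 20.0 RPKM in the refed libraries at its promoter. All refed values were lower, with a change of -0.52 ± 0.18 that neither limma nor edgeR called (adjusted p = 0.194 and 0.0587), while the authors' deposited table lists it at an FDR of 0.0236. The strongest Ces1 peak, in intron 3 of Ces1g, stood at 30.2 ± 0.685 and 29.7 ± 2.53 RPKM (limma adjusted p = 0.999). The Ces1f promoter had 18.6 ± 2.77 and 17.2 ± 1.80 RPKM (limma adjusted p = 0.922). Of the 30 Ces1 peaks 9 were above 0, with a median log2 change of -0.11, which was -0.02 without refed replicate 5 and -0.06 without fasted replicate 3 or with array weights.

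Ces2 enzymes hydrolyse esters with large alcohol groups. In exon 2 of 12 of Ces2c the level was 17.8 ± 4.99 RPKM in the fasted and 27.7 ± 2.77 RPKM in the refed liver (0.67 ± 0.22, limma adjusted p = 0.162), the smallest unadjusted p of its family. The Ces2a promoter had 26.3 ± 5.32 and 19.6 ± 2.53 RPKM and the more open peak 2036 bp upstream of it 29.0 ± 2.54 and 25.5 ± 1.47 RPKM (limma adjusted p = 0.386 and 0.663). Ces4a had 14.5 ± 1.44 and 11.8 ± 2.57 RPKM at its promoter and 16.0 ± 4.48 and 20.4 ± 0.560 RPKM in intron 2 (limma adjusted p = 0.699 and 0.499).

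Openness at the gene start ranged widely between members, and limma called no difference between the groups there. Of the 78 genes 59 had a peak within 1000 bp of the start, with a median of 20.2 RPKM over the 6 libraries at the peak nearest the start. Limma called 0 of these nearest peaks, with 9 at an unadjusted p under 0.05. Over all peaks 14.5% had such a p in either direction. Among all 9220 promoter peaks 294 were higher and 298 lower at that p. EdgeR and DESeq2 called 1 nearest peak each, that of Gstp3. The Gstt2 peak at 718 bp, which edgeR called, is not the nearest to its start. Gstz1 led with 62.8 RPKM, followed by Gstm1 at 54.6, Gstk1 at 52.8, Gstm4 at 52.7 and Gstm7 at 51.0 RPKM. Gsto2 and Ugt1a1 followed at 47.2 RPKM each and Gstp1 at 45.7 RPKM. The single libraries of these 8 genes overlapped between neighbours in the order, so their ranks are not firm. All 8 were above the 90th percentile of all peaks, 40.2 RPKM. At the other end Sult2a1 and Sult2a2 stood at 1.87 and 1.58 RPKM and Ces2d-ps held no read.

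**Figure D5:**
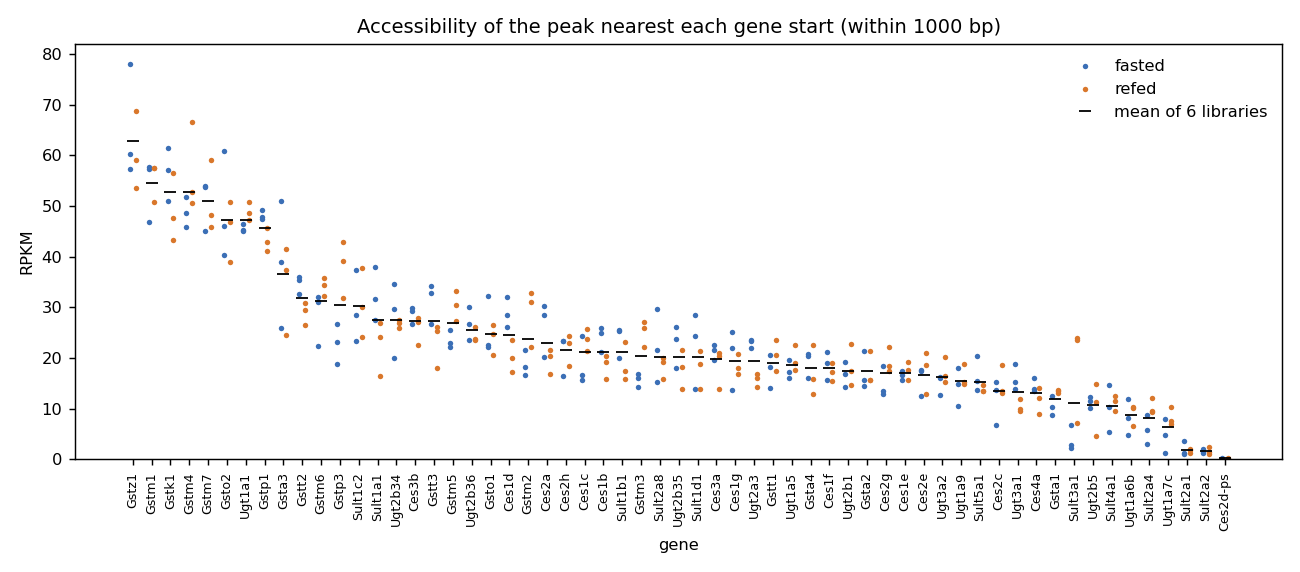
Accessibility in RPKM of the peak nearest each gene start, for the 59 member genes with a peak within 1000 bp, ordered by the mean of the 6 libraries; points are single fasted and refed libraries and bars the means. Means run from 62.8 RPKM at Gstz1 to 1.58 RPKM at Sult2a2, with Ces2d-ps empty, and fasted and refed points lie in the same range at most genes.

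Genes that regulate, feed or complete the conjugation reactions were taken from 4 lists and read from the same limma fit. Of 12 regulators with 105 peaks, among them the xenobiotic receptors Nr1i2 and Nr1i3, 0 peaks were higher and 1 lower, with 12 and 15 at an unadjusted p under 0.05 and 1 higher peak in edgeR. The lower peak lies in intron 1 of Rxra, the shared partner of these receptors, and fell from 48.6 ± 2.40 to 31.5 ± 4.60 RPKM (-0.64 ± 0.13, limma adjusted p = 0.0357), though edgeR did not call it (adjusted p = 0.138). The 12 genes that supply the activated sugar, sulfate and glutathione had 90 peaks and 0 calls in limma, with 7 higher and 7 lower peaks below an unadjusted p of 0.05, 3 calls in edgeR and 0 in DESeq2. Of 23 genes for other conjugating or hydrolysing enzymes 21 had peaks, and 3 of 128 peaks were higher and 3 lower. Over all peaks limma called 0.802% higher and 0.427% lower, and 8.91% and 5.64% had an unadjusted p under 0.05. EdgeR called 2.58% of its tested peaks higher and 1.43% lower.

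An intronic peak of Pon1, a paraoxonase that hydrolyses organophosphates and lactones, fell from 38.6 ± 6.42 to 17.3 ± 2.10 RPKM (-1.15 ± 0.18, limma adjusted p = 0.0116). Of 59 peaks at 7 exporter genes, an intronic peak of Abcc3, which moves conjugates back to blood, fell from 36.9 ± 7.08 to 16.4 ± 5.79 RPKM (limma adjusted p = 0.0302). An intronic peak of the bile salt pump gene Abcb11 rose from 5.80 ± 1.11 to 17.0 ± 2.87 RPKM (limma adjusted p = 0.0489; edgeR adjusted p = 0.0309). This Abcb11 peak, in an LTR repeat 47975 bp from the start, rested on few reads. The fasted libraries held 7, 4 and 4 reads and the refed libraries 13, 11 and 20, and DESeq2 gave it no adjusted p.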

How the data were processed

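ATAC-seq libraries of mouse liver were grouped by the labels into 3 fasted and 3 refed. The submitters' processing notes name mm9, HOMER, MACS2, Bowtie2, SAMtools, cutadapt, FastQC and DESeq2; their versions and settings, and any shift of reads for the transposase, are not given there. Per the file headers, duplicates were removed, unique reads kept and peaks annotated from a merged list. The authors' RPKM values are reads per kilobase of peak scaled to each library's total in the peaks, which hides any difference in how many reads fall in peaks, and the deposited log2 columns are their log2. The authors' edgeR table gives read counts, a p-value with its FDR and a log2 fold change for 3314 peaks; the deposited ratio and unadjusted p-value per peak were not used. Whole reads were recovered from RPKM steps for 100% of values (tolerance 0.01 reads, empty peaks at 0.9) and equalled the authors' counts at all 3314 peaks.

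Limma 3.58.1 in R 4.3.3 (lmFit, eBayes with intensity trend) was fitted to log2 RPKM of all 74076 peaks, without pseudocount, filter or covariate, refed minus fasted, two-sided, with Benjamini-Hochberg adjustment over the whole table and a threshold of 0.05. EdgeR 4.0.16 (quasi-likelihood, TMM, filterByExpr) and DESeq2 1.42.0 on recovered reads were alternatives, and the fits were tested on simulated data. Members and lists were chosen with earlier results of these data known. Named peaks were those called by limma, edgeR or the authors and, per family, those with the smallest p, the highest mean and the shortest distance to a start; Gstm, Gstt, Ugt1a1, Sult1a1, Sult2a1 and Sult2a2 peaks beyond these were added after their values were seen. Of the other lists, at most 3 called peaks each were named, and the values of some listed genes are not reported here. Promoter sequences come from RefSeq GRCm38.p6, and no mm9 sequence was used.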

Additional observations from a re-analysis of the deposited data

How the results depend on the processing

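No paired analysis was possible because the fasted and refed groups share no replicate number. Over all peaks, limma called 594 higher and 316 lower. The counts were 71 and 23 with quantile normalization and 0 and 0 without an intensity trend (10454 at an unadjusted p under 0.05). They were 6524 and 3162 with array weights and 886 and 607 with median centring. EdgeR called 1573 and 876, or 1537 and 894 without its filter and 1442 and 891 with DESeq2 size factors. With fasted replicate 3 and refed replicate 7 left out, an alternative chosen after seeing the data, limma called 205 and 83. Leaving out each library in turn gave 77 to 970 higher and 48 to 211 lower peaks.

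Among the members, the 2 higher and 1 lower calls became 1 and 0 with quantile normalization, 0 and 0 without an intensity trend (40 at an unadjusted p under 0.05) and 25 and 12 with array weights. EdgeR called 6 and 4, or 7 and 5 without its filter and 6 and 4 with DESeq2 size factors, and DESeq2 called 4 and 0. With both shallowest libraries left out the counts were 2 and 0, where the Gstt2 peak had a limma adjusted p of 0.0951. Without peaks annotated to a transcript of a gene outside the families, also chosen after seeing the data, they were 0 and 1. Leaving out each library in turn gave 2 to 4 higher members (4 without fasted replicate 1) and 0 to 1 lower. The members' median log2 change ran from -0.09 to 0.02. Of 46 named peaks, 10 that were not called changed sign in an alternative, and no called peak did. The cause of these shifts was not tested. With a median of 19 to 33 reads per peak and library, depth limits the precision at weak peaks.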
